A study of Rattus norvegicus with 12 samples.

Results

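The genes described here are 10 transcripts of the fasting and glucocorticoid response of skeletal muscle: Pdk4, Angptl4, Ucp3, Fbxo32, Trim63, Cdkn1a, Foxo1, Fkbp5, Klf15 and Ddit4. They were taken by symbol from 24648 rows of a table of raw RNA-seq counts, each symbol matched a single row, and all 10 were among the 14225 genes with enough counts to be tested. They are known targets of FoxO, PPAR and glucocorticoid receptor factors, and they were selected on their levels in these same libraries, which vary strongly within a diet. The size of that variation is therefore given as a description, without a test.

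The muscle came from male rats 540 days old. Their mothers ate a control diet, of a composition that the labels leave out, or, for the restriction groups, one of 6% protein through gestation and lactation. The treatment was thus given to the mothers, and no strain, dam or litter is named in the labels used here. The 12 libraries fell by their title numbers into 4 groups of 3. Libraries 3, 8 and 9 (control) and 12, 13 and 15 (restriction) formed set 1, and libraries 23, 28 and 29 (control) and 32, 33 and 35 (restriction) formed set 2. The study took soleus and extensor digitorum longus muscle, and the labels tie neither to a library, so the sets keep their numbers here. The labels do not state separate animals for the libraries of a group, so p-values measure only how far these libraries differ, and that spread may be technical. Some animals may have given a library to each set. No feeding state or time of day at sampling is given in the labels used here.

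When food is withheld, insulin falls, and FoxO transcription factors, which insulin signalling keeps out of the nucleus, enter it and switch on genes of protein breakdown. Glucocorticoids, the adrenal steroids of fasting and stress, act in the same direction through their own nuclear receptor. Fatty acids released from fat stores activate PPAR receptors, which switch on genes that spare glucose and burn fat. In muscle these signals meet on a shared group of genes that rises in fasting, in glucocorticoid excess and in muscle wasting.

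The promoter windows of the genes were read for motifs of such factors. Whether the motifs have a part in the shared movement of the genes between libraries was not tested. For 9 of the 10 genes a RefSeq window was at hand (build GRCr8, while the counts were made on Rnor_6.0), and the 250 bases before the annotated start were searched on both strands for GTAAACA (FoxO), the palindromic glucocorticoid response element, AGGTCA (the core motif of PPAR and related receptors) and CACGTG (the E-box bound by clock and other factors). Fbxo32 is named only. The windows of Pdk4, Angptl4, Foxo1, Fkbp5, Cdkn1a and Ddit4 held no match. The 3 windows that held a match follow, from 5′ to 3′ along the gene, with the matches in capitals.
Trim63, GRCr8 chr5:151816986-151817235, + strand: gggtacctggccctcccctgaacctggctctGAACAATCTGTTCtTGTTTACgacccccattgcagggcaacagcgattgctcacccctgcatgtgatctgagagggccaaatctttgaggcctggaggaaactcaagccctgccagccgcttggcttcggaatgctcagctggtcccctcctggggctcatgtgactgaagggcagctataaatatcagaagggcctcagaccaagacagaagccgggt
Ucp3, GRCr8 chr1:164227660-164227909, + strand: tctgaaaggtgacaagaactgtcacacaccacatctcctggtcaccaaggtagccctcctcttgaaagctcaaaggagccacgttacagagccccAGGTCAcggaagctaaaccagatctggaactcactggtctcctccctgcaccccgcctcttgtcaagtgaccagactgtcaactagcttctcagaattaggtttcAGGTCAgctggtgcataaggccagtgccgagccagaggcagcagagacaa
Klf15, GRCr8 chr4:124522765-124523014, + strand: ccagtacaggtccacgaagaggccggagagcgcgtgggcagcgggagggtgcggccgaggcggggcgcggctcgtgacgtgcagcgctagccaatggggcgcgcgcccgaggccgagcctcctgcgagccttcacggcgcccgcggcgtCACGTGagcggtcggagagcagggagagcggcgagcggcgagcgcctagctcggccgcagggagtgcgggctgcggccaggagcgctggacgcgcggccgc
In Trim63 the receptor motif (GAACAATCTGTTC, from -219 to -207 relative to the start) and the FoxO motif (TGTTTAC, the other strand of GTAAACA, from -205 to -199) lay beside each other without overlap. Ucp3 held AGGTCA at -155 to -150 and at -50 to -45, and Klf15 held the E-box at -101 to -96. Among 33469 RefSeq windows of this length, 3.21% held the FoxO motif, 0.373% the receptor motif, 14.1% AGGTCA and 5.59% CACGTG, and each was held by 1 of the 9 genes. A match is a run of letters and was not tested as a binding site, and many known sites of these genes lie outside such a short window.

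The libraries held 22829692 to 38313704 counts. Levels are given as CPM, the counts scaled to a common library size with TMM, a method that corrects for differences in composition. They are compared only within a gene, since they are not divided by transcript length. The sum of 8 slow-fibre markers ran from 91221 to 105700 CPM in set 1 and from 1667 to 5459 CPM in set 2, and that of 9 fast-fibre markers from 3733 to 10550 CPM and from 136570 to 164180 CPM. Both control libraries 3 and 23 stood apart. Library 3 held 396 CPM of Myh4, the fast type IIB myosin, against 4.97 to 19.5 CPM in the rest of set 1. Its sum of the 9 fast-fibre markers, 6963 CPM, lay within the range of the other set 1 libraries, so Myh4 does not stand for fast-fibre markers as a whole. Library 23 had a TMM factor of 0.815 against 0.968 to 1.10 elsewhere, and 1973 CPM of 6 red blood cell markers against 299 to 749 CPM. The diet and set comparisons, the spread and the likeness between genes are also given without these 2 libraries, a choice made after seeing the data.

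**Figure D1:**
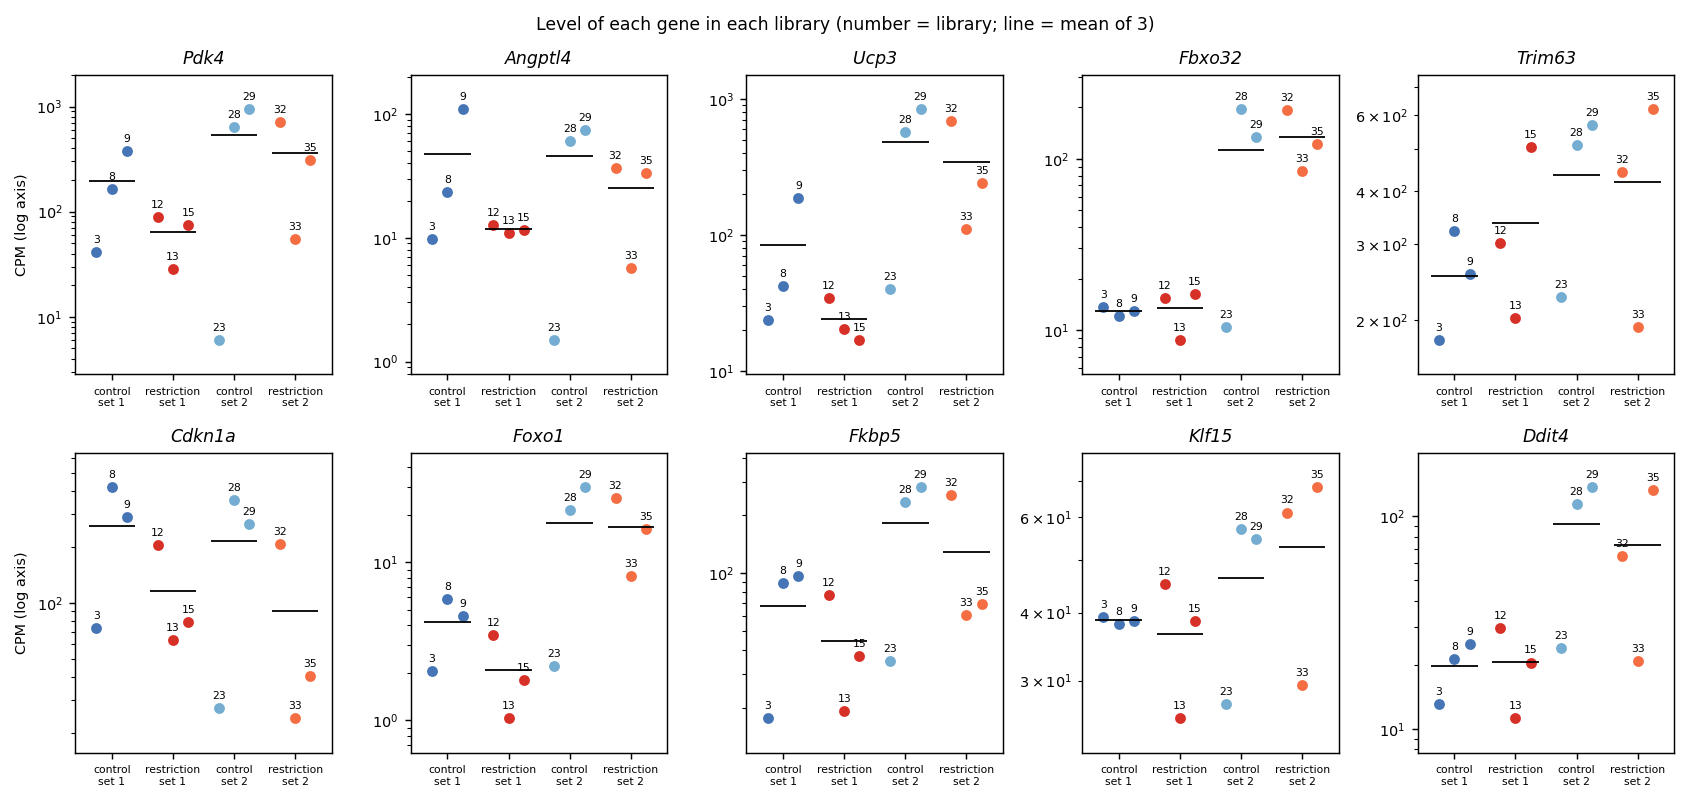
CPM of each of the 10 genes (log axis) in the 12 libraries, in 4 groups, with library numbers beside the points and the mean of each group of 3 as a line. Library 23 is the lowest of the set 2 controls and library 33 the lowest of the set 2 restriction libraries in all 10 panels.

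Genes of fuel choice are described first. Pdk4 encodes a kinase that shuts the pyruvate dehydrogenase complex and so spares glucose when fat is burnt. It measured 41.3, 165 and 381 CPM in control libraries 3, 8 and 9 and 88.3, 28.8 and 74.1 CPM in restriction libraries 12, 13 and 15. In set 2 it measured 6.06, 642 and 945 CPM in control libraries 23, 28 and 29 and 718, 55.2 and 311 CPM in restriction libraries 32, 33 and 35. Within a single diet and set, the highest library thus exceeded the lowest by 9.22, 3.07, 156 and 13.0 times in set 1 controls, set 1 restriction, set 2 controls and set 2 restriction. The diets overlapped in both sets, and library 23 was the lowest of all 12 although it lay in the set with the higher mean.

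Angptl4 encodes a secreted inhibitor of lipoprotein lipase, made by muscle and fat cells when fatty acids are high. Its values in set 1 were 9.78, 23.4 and 110 CPM in controls and 12.8, 10.9 and 11.5 CPM after restriction. In set 2 they were 1.5, 60.3 and 74.5 CPM in controls and 36.7, 5.69 and 33.4 CPM after restriction. The 3 restriction libraries of set 1 lay within 1.17 times of each other, while the controls of that set spanned 11.2 times, with library 9 alone at the top.

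Ucp3 encodes a mitochondrial carrier of muscle that rises with fatty acid supply. It stood at 23.7, 41.7 and 187 CPM among the set 1 controls, with 34.1, 20.4 and 16.9 CPM after restriction. In set 2 it stood at 39.6, 568 and 841 CPM in controls and 686, 110 and 242 CPM after restriction. Library 9 was again far above the other set 1 libraries, and library 23 fell within the range of set 1.

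The ubiquitin ligases that mark muscle protein for the proteasome were measured next. Fbxo32 (atrogin-1) varied little among the set 1 controls, at 13.7, 12.1 and 12.9 CPM, the highest 1.13 times the lowest. After restriction it was at 15.5, 8.79 and 16.2 CPM, a span of 1.84 times. Set 2 held 10.4, 195 and 134 CPM in controls and 194, 85.3 and 122 CPM after restriction. Library 23 thus sat among the set 1 libraries, while the other 5 libraries of set 2 all exceeded every library of set 1. Trim63 (MuRF1), which targets myosin and other thick-filament proteins, had a narrower range. Its values were 180, 323 and 256 CPM for controls and 303, 202 and 507 CPM for restriction in set 1, then 227, 512 and 571 CPM and 443, 192 and 621 CPM in set 2. The highest library exceeded the lowest by 1.80 to 3.23 times in the 4 groups, and libraries 3, 13, 23 and 33 were the lowest of theirs.

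Among the transcription factors, Foxo1, the FoxO member most responsive to fasting in muscle, measured 2.05, 5.91 and 4.55 CPM in set 1 controls and 3.45, 1.04 and 1.79 CPM after restriction. In set 2 the values were 2.20, 21.6 and 29.8 CPM in controls and 25.5, 8.23 and 16.3 CPM after restriction. The diets overlapped in each set. Klf15, a factor induced by glucocorticoids that drives amino acid breakdown, varied least of the 10. Set 1 controls were at 39.3, 38.2 and 38.6 CPM, the highest 1.03 times the lowest, so in that group Klf15 does not share the strong variation for which the genes were chosen. The other groups measured 45.2, 25.6 and 38.7 CPM, 27.2, 57.0 and 54.6 CPM, and 61.1, 29.4 and 68.0 CPM.

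Brakes on growth and hormone signalling completed the group. Cdkn1a encodes p21, an inhibitor of the cell cycle kinases that muscle also raises in atrophy. It was at 73.5, 417 and 287 CPM for controls and 204, 62.8 and 78.9 CPM for restriction in set 1, then 27.1, 355 and 266 CPM and 206, 24.1 and 40.4 CPM in set 2. In each restriction group a single library, 12 or 32, lay far above the other 2. Ddit4 (REDD1), an inhibitor of the growth kinase mTORC1, measured 13.1, 21.2 and 25.1 CPM, then 29.9, 11.2 and 20.5 CPM in set 1, and 24.0, 115 and 137 CPM, then 64.8, 20.9 and 133 CPM in set 2, controls first. Fkbp5, a co-chaperone that the glucocorticoid receptor induces and that dampens it, measured 17.7, 89.0 and 96.8 CPM, then 76.8, 19.3 and 37.3 CPM in set 1, and 35.2, 236 and 280 CPM, then 257, 60.4 and 69.0 CPM in set 2. For both genes library 3 was the lowest set 1 control and library 23 the lowest set 2 control.

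Within the 4 groups the variation had a median SD of 0.95 on the log2 CPM scale for the 10 genes and 0.29 for all genes tested. For the 10 genes it was 1.05 in set 1 controls, 0.69 in set 1 restriction, 2.03 among set 2 controls and 1.24 after restriction in set 2, and 0.66 over all groups without library 23 and 0.50 without libraries 3 and 23. The 0.29 for all genes includes these libraries, so it is not a matching background for the values without them. By mean SD over the groups, Pdk4 took rank 5 of 14225 genes, Angptl4 rank 30, Cdkn1a rank 90, Ucp3 rank 100 and Fkbp5 rank 228, while Trim63 took rank 2616 and Klf15 rank 5128. These values describe what the genes were chosen for.

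The same libraries were low for most of the genes. Library 23 was the lowest of its group of 3 for 10 of the 10 genes, library 33 for 10, library 13 for 9 and library 3 for 8. The exceptions were Fbxo32 and Klf15 in library 3, where they were the highest of the 3, and Ucp3, lowest in library 15 and not in library 13. At the upper end the genes were less uniform. Library 12 was the highest of its group for 8 genes, libraries 29 and 32 for 7 each and library 9 for 5. On average over the 10 genes library 23 lay 2.33 below its group mean on the log2 scale (a deviation of -2.33), library 33 had a deviation of -1.17, library 3 of -0.94 and library 13 of -0.61, while the median over all genes tested was between -0.015 and 0.018 in each library. The numbers of libraries 3 and 23, and of 13 and 33, differ by 20. Each such pair may come from the same animal, so they may not be independent repeats of the pattern.

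**Figure D2:**
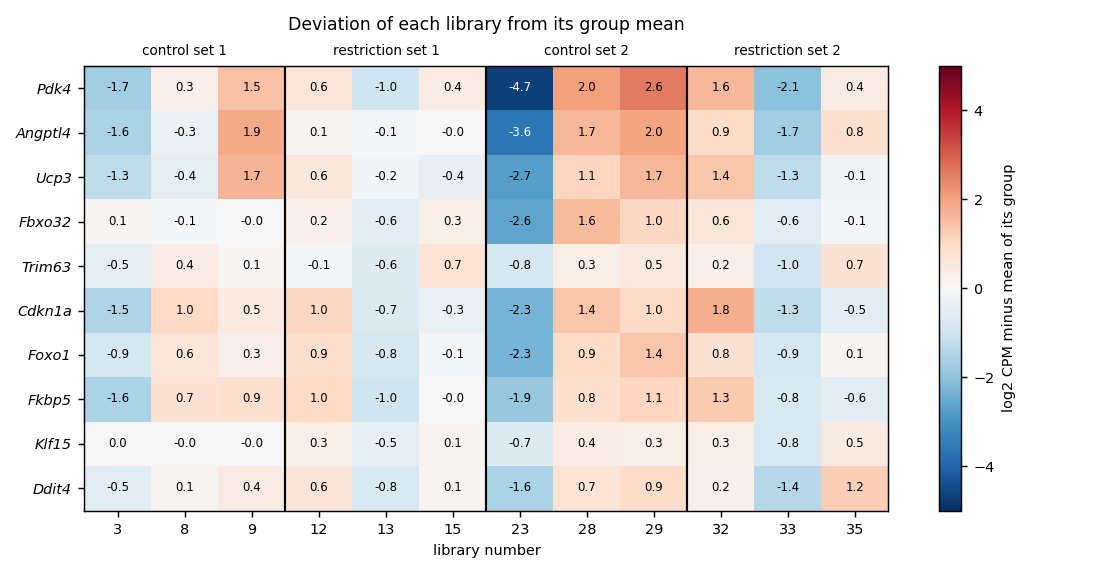
Log2 CPM of each gene in each library minus the mean of its group of 3, with lines between the groups. Columns 3, 13, 23 and 33 are blue for most genes, with the largest deviations for Pdk4 and Angptl4 in library 23.

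To see which other genes shared this pattern, each gene was compared with the mean of the 10 after removing group means and scaling, by a likeness r over the 12 libraries that is given as a description only. Each of the 10 genes had an r from 0.78 (Trim63) to 0.99 (Pdk4) with the mean of the other 9, from 0.65 (Fbxo32) to 0.97 (Pdk4) over 11 libraries without library 23, and from 0.66 (Trim63) to 0.97 (Pdk4) over 10 without libraries 3 and 23. Among the genes outside the group with the highest likeness were Tns1, Cep85l, Pcnt, Psme4 and Brpf3, with r from 0.98 to 0.99. Tns1 encodes tensin 1, an adhesion protein, and Psme4 an activator of the proteasome. Psme4 measured 117, 137 and 147 CPM among the controls of set 1 and 132, 334 and 334 CPM among those of set 2. Libraries 3 and 23 were again the lowest of their groups.

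Lists of related genes were then counted at a likeness of at least 0.7, a level that 10.4% of all other tested genes reached. Of 25 other FoxO and atrophy genes 14 reached it (56.0%), of 22 other glucocorticoid receptor genes 11 (50.0%) and of 27 other PPAR and fat-use genes 13 (48.1%). Without library 23 the shares were 36.0%, 45.5% and 37.0%, against 4.68% of all other genes, and without libraries 3 and 23 they were 36.0%, 40.9% and 33.3%, against 5.11%. The lists share a few genes with each other. Among them, picked after their values were seen, were Glul, the glutamine synthetase (r 0.97), Zfand5, a regulator of the proteasome (0.96), Klf9 (0.95), the glucocorticoid-induced factor Tsc22d3 (0.94), Acot2 (0.94) and the lysosomal protease Ctsl (0.93). Zbtb16, another glucocorticoid-induced factor, had 0.89, and 0.95 without library 23.

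Close relatives of the 10 genes split. Of 18 tested, 6 reached 0.7 and 5 lay at or below -0.7, a level that 8.08% of other genes reached. Pdk2, the main pyruvate dehydrogenase kinase of resting muscle, had -0.79 where its relative Pdk4 had 0.99, and Trim55, a relative of Trim63, had -0.82, although these were -0.32 and -0.55 without library 23. Trim54, another relative of Trim63, had 0.75, and 0.78 without library 23. Foxo3, a relative of Foxo1, had 0.90, and 0.70 without library 23. Without libraries 3 and 23, 4 of the 18 reached 0.7 and 2 lay at or below -0.7. Of the receptors themselves, Nr3c1, which encodes the glucocorticoid receptor, had -0.63, Ppara -0.86 and Ppard 0.25 (-0.86, -0.74 and 0.26 without library 23, -0.83, -0.66 and 0.21 without libraries 3 and 23). At 0.7 and above, clock genes (3 of 17, 17.6%), immediate early genes (3 of 17, 17.6%) and p53 targets (3 of 12, 25%) were nearer to the share of all genes. Without library 23 there were 1, 0 and 0 of them, and without libraries 3 and 23 there were 1, 1 and 0. Denervation genes had 0 of 12. At or below -0.7, over the 12 libraries, lay 1 clock gene and 0 immediate early genes, p53 targets and denervation genes. Without libraries 3 and 23, 4 of 17 immediate early genes lay there, 1 of 12 p53 targets, 1 of 12 denervation genes and 0 clock genes. In that comparison 674 of 14215 other genes lay there.

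**Figure D3:**
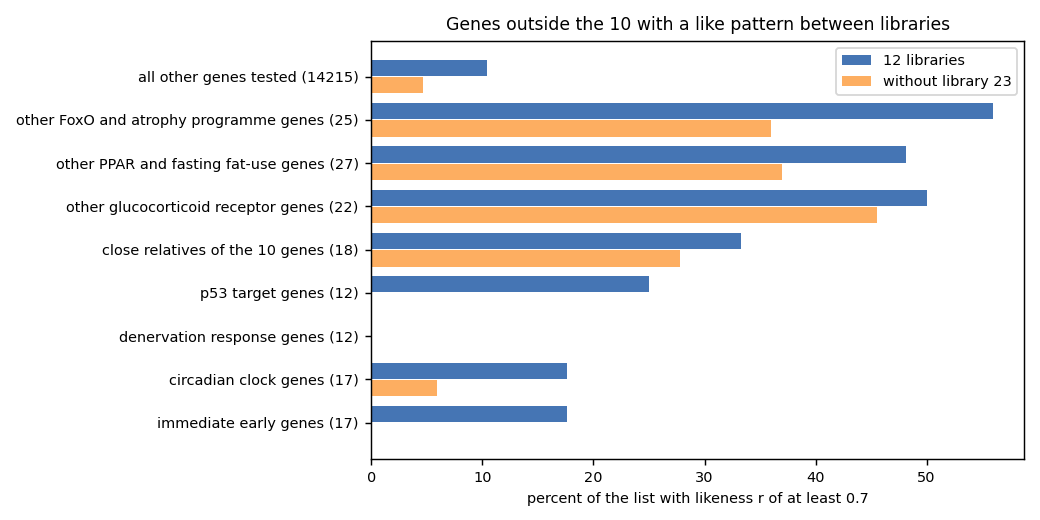
Percent of the tested genes of each list (number in brackets) with a likeness r of at least 0.7 to the mean of the 10 genes, over 12 libraries and without library 23. The FoxO, PPAR and glucocorticoid lists lie between 48.1% and 56.0%, all other tested genes at 10.4%.

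Markers of other cells were set beside this pattern. Of 8 adipocyte markers 2 reached 0.7 and 1 lay at or below -0.7, and their sum was 178, 254 and 354 CPM for the controls of set 2 and 479, 443 and 379 CPM for those of set 1, so library 3 was the highest of its group and library 23 the lowest. After restriction the sum was 312, 349 and 320 CPM in set 1 and 274, 176 and 233 CPM in set 2. A single adipocyte marker was at 0 counts, in library 23. Of 8 macrophage markers 2 reached 0.7 (0 without library 23), and of 5 red blood cell markers tested 2 lay at or below -0.7, with a median r of -0.63. Without libraries 3 and 23, 0 of the red blood cell markers lay there. Of 6 fibroblast and fibro-adipogenic markers 1 reached 0.7 and 1 lay at or below -0.7, and without libraries 3 and 23 these counts were 0 and 2. Over the 12 libraries none of 8 slow-fibre and 9 fast-fibre markers reached 0.7 in either direction, and without libraries 3 and 23 there was 1 of each at or below -0.7. In bulk tissue, fewer cells of a type and less RNA per cell cannot be told apart, and the part of these markers in the pattern was not tested.

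The study's question was what maternal protein restriction left behind in the muscle of old offspring. None of the 10 genes passed between the diets in set 1, in set 2 or for the mean of both, by edgeR's quasi-likelihood test with Benjamini-Hochberg adjustment over all genes at 0.05. The background was as low, with 0.00703% of genes called in set 1, 0% in set 2 and 0.00703% for the mean. At an unadjusted p under 0.05 there were 0 of the 10 genes in each of these comparisons and 7.54%, 8.59% and 7.83% of all genes. DESeq2 and limma-voom called 0 of the 10 as well. A p that misses the threshold does not show equal levels, since the SE of the 10 genes had a median of 0.74 in set 1 and 0.71 in set 2, against 0.28 over all genes in either set.

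In set 1 the fuel genes had the lowest values. The log2 fold change, restriction minus control, was -2.02 ± 1.01 (SE) for Angptl4 (edgeR adjusted p = 0.664), -1.82 ± 0.92 for Ucp3 and -1.62 ± 1.16 for Pdk4. Without library 9 they were -0.50, -0.45 and -0.69, so a single control carried most of them. Cdkn1a (-1.17 ± 0.88), Foxo1 (-0.99 ± 0.73) and Fkbp5 (-0.61 ± 0.76) were also below 0. Klf15 (-0.09 ± 0.31), Ddit4 (0.05 ± 0.62), Fbxo32 (0.06 ± 0.64) and Trim63 (0.42 ± 0.43) lay within 1 SE of 0, as did Fkbp5. In all, 7 of the 10 values were below 0, with a median of -0.80, where 50.4% of all genes were below 0. The 10 genes moved together between libraries, so their signs, here and below, are not independent of each other. Without libraries 3 and 23 Angptl4 was at -2.51 (edgeR adjusted p = 0.0897), Ucp3 at -2.26, Pdk4 at -2.10, Cdkn1a at -1.61, Foxo1 at -1.32 and Fkbp5 at -1.06, and 5 of the 10 had an unadjusted p under 0.05, as did 15.5% of all genes in that fit. Without library 12 Cdkn1a was at -1.87, Foxo1 at -1.56 and Fkbp5 at -1.26, and without library 8 Cdkn1a was at -0.65. Without library 13 Foxo1 was at -0.66 and Fkbp5 at -0.25. In none of the 10 genes did the diets separate without overlap, which 9.60% of all genes did with lower and 7.97% with higher restriction values.

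In set 2 Cdkn1a was at -1.26 ± 0.88 (edgeR adjusted p = 0.670), Angptl4 at -0.85 ± 0.97, Pdk4 at -0.56 ± 1.13, Fkbp5 at -0.51 ± 0.76 and Ucp3 at -0.48 ± 0.89. The others were Ddit4 (-0.33 ± 0.61), Foxo1 (-0.11 ± 0.67), Trim63 (-0.06 ± 0.43), Klf15 (0.19 ± 0.31) and Fbxo32 (0.24 ± 0.62). All of the 10 but Cdkn1a were within 1 SE of 0. There were 8 of 10 values below 0 with a median of -0.41, where 51.5% of all genes were below 0, and the diets overlapped for all 10 (5.72% and 7.01% of all genes separated, lower and higher). The value of Cdkn1a was -2.74 without library 32, still not called, and those of Pdk4, Ucp3 and Fkbp5 were -1.54, -1.46 and -1.50. Without library 29 Pdk4 was at 0.15, Ucp3 at 0.18, Angptl4 at -0.30 and Fkbp5 at -0.08, and without library 28 Cdkn1a was at -0.70. Without libraries 3 and 23 the values were -1.79 for Cdkn1a, -1.41 for Angptl4, -1.14 for Pdk4, -1.03 for Ucp3, -1.0 for Fkbp5, -0.78 for Ddit4 and -0.63 for Foxo1, with 2 of the 10 at an unadjusted p under 0.05, as were 9.24% of all genes in that fit.

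**Figure D4:**
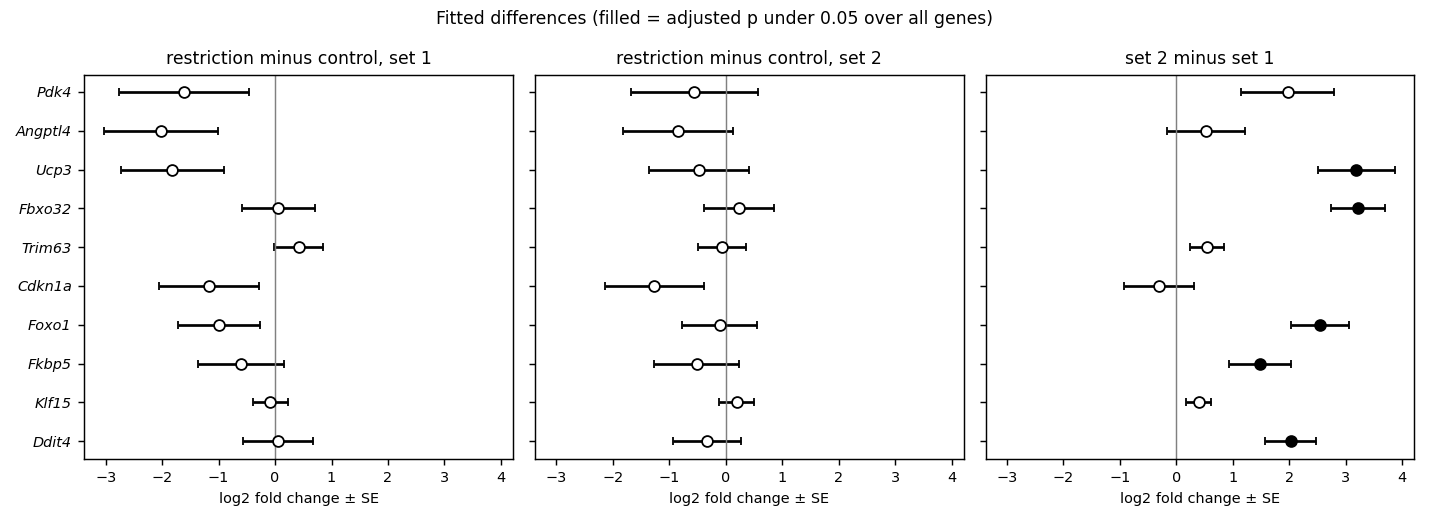
Fitted log2 fold change ± SE of each gene for restriction minus control in set 1 and in set 2 and for set 2 minus set 1, on one scale, filled where the adjusted p over all genes was under 0.05. No point is filled for diet, and 5 are filled between the sets.

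For the mean over both sets, Angptl4 was at -1.44 ± 0.70 (edgeR adjusted p = 0.655), Cdkn1a at -1.22 ± 0.62 (0.669), Ucp3 at -1.15 ± 0.64 (0.702) and Pdk4 at -1.09 ± 0.81 (0.790). Fkbp5 was at -0.56 ± 0.54, Foxo1 at -0.55 ± 0.49, Ddit4 at -0.14 ± 0.43, Klf15 at 0.05 ± 0.22, Fbxo32 at 0.15 ± 0.45 and Trim63 at 0.18 ± 0.30. Without library 9 Angptl4 was at -0.68, Pdk4 at -0.62 and Ucp3 at -0.47, and without library 32 Cdkn1a was at -1.96 and Fkbp5 at -1.06. Foxo1 was at -0.83 without library 12 and -0.26 without library 29, where Fkbp5 was at -0.34. In all 7 of the 10 were below 0, as were 51.8% of all genes. The diet effect did not pass as different between the sets for any of the 10, with 0% of all genes called. Set 2 minus set 1, it was 1.34 ± 1.26 for Ucp3, 1.18 ± 1.38 for Angptl4, 1.06 ± 1.60 for Pdk4, 0.89 ± 0.98 for Foxo1, 0.28 ± 0.44 for Klf15, 0.18 ± 0.90 for Fbxo32, 0.10 ± 1.07 for Fkbp5, -0.09 ± 1.23 for Cdkn1a, -0.38 ± 0.87 for Ddit4 and -0.48 ± 0.60 for Trim63. Of these differences 3 of 10 were below 0 (50.2% of all genes), and 0 of 10 had an unadjusted p under 0.05 (9.5% of all genes). When libraries 3 and 23 were left out, 0 of the 10 passed for the mean, where 1.01% of all genes did, with Angptl4 nearest at -1.96 (edgeR adjusted p = 0.0603), and 6 of 10 had an unadjusted p under 0.05, as did 16.1% of all genes in that fit. These are the control libraries with the lowest levels of most of these genes, so leaving them out moves the diet values down by construction.

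The related lists gave 0 called genes in either direction for diet in set 1, in set 2 and for the mean. Of 27 PPAR and fat-use genes 22 were below 0 in each set, with medians of -0.22 and -0.21 beside -0.003 and -0.012 over all genes. Of the 27, 13 shared the pattern between libraries at a likeness of at least 0.7, so these signs are not independent either. Fabp3, the fatty acid binding protein of muscle, had -0.80 ± 0.32 in set 1 and -0.58 ± 0.32 in set 2, not passing. Of 25 FoxO and atrophy genes 17 and 16 were below 0, with medians of -0.09 and -0.13, and the smallest p belonged to Foxo4 in set 1 (-0.54 ± 0.16) and to Trim32, a ubiquitin ligase, in set 2 (0.53 ± 0.20). The 22 glucocorticoid receptor genes had 12 and 15 below 0, with medians of -0.12 and -0.13, and Sgk1, a kinase induced by glucocorticoids, had -1.51 ± 0.34 in set 2 (edgeR adjusted p = 0.413).

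Between the sets the genes differed more. Set 2 minus set 1, over both diets, 5 of the 10 rose and 0 fell, where 19.9% of all genes rose and 19.6% fell (39.5% in either direction). A single value was below 0 (50.3% of all genes), and 6 of 10 had an unadjusted p under 0.05 (47.7% of all genes). The log2 fold change was 3.22 ± 0.48 for Fbxo32 (SE, with an adjusted p from edgeR of 0.000125), 3.19 ± 0.68 for Ucp3 (0.00197), 2.55 ± 0.51 for Foxo1 (0.00126), 2.02 ± 0.45 for Ddit4 (0.00253) and 1.49 ± 0.55 for Fkbp5 (0.0433). Of these, all but Fkbp5 passed in 12 of 12 fits that left out a library, and Fkbp5 in 5 of 12, with DESeq2 and limma-voom not calling it (adjusted p = 0.0545 and 0.0734). Fkbp5 did pass without a filter on low counts (edgeR adjusted p = 0.0147) and without libraries 3 and 23 (edgeR adjusted p = 0.0109). The sets overlapped for all 10 genes, and for Fbxo32 and Foxo1 through library 23 alone. Of all genes, 8.97% lay higher and 9.77% lower in set 2 without overlap.

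Pdk4 (1.97 ± 0.82, edgeR adjusted p = 0.0723), Trim63 (0.55 ± 0.30), Angptl4 (0.52 ± 0.69), Klf15 (0.40 ± 0.22) and Cdkn1a (-0.31 ± 0.61) did not pass. Without library 23, and likewise without library 33, 7 of the 10 rose, Pdk4 (2.25 and 2.23) and Klf15 (0.52 and 0.54) with them. Those fits called 44.1% and 35.1% of all genes in either direction. Pdk4 and Klf15 passed only in these 2 of the 12 fits that left out a single library. Their highest edgeR adjusted p there was 0.18 for Pdk4 (without library 32) and 0.351 for Klf15 (without library 35). Limma-voom put Pdk4 at 1.1 (adjusted p = 0.425). The fit without a filter on low counts put it at 1.99 (adjusted p = 0.0304). Without libraries 3 and 23, 6 rose, with 43% of all genes called, and Pdk4 was at 2.02 (edgeR adjusted p = 0.00851). In the fit with all 12 libraries 19.6% of all genes were called lower in set 2 and 19.9% higher. There, 6 of 8 adipocyte, 8 of 8 macrophage and 6 of 6 fibroblast and fibro-adipogenic markers were called lower. Of 5 endothelial markers 3 were higher and 1 lower. The sums ran from 312 to 479 and 176 to 354 CPM for adipocyte, from 190 to 472 and 52.2 to 103 CPM for macrophage and from 452 to 827 and 257 to 362 CPM for fibroblast markers, set 1 first. No macrophage or fibroblast marker was at 0. The part of these markers in the set difference was not tested.

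Of the related lists, 11 of 25 FoxO and atrophy genes rose and 3 fell in set 2, with Fbxo31, another F-box protein of ubiquitin ligases, at 1.59 ± 0.20 and the mitophagy gene Bnip3 at -0.89 ± 0.13. Of 22 glucocorticoid receptor genes 6 rose and 4 fell, with Glul at 1.82 ± 0.23, Tsc22d3 at 1.28 ± 0.22 and Hsd11b1, which regenerates active glucocorticoid, at -1.03 ± 0.22. Of 27 PPAR and fat-use genes 4 rose and 9 fell, among them the lipid droplet gene Plin2 (-1.21 ± 0.11) and Lpl (-2.09 ± 0.24), the lipase that Angptl4 inhibits. These counts stand beside 19.9% of all genes that rose and 19.6% that fell. The medians of the 3 lists were 0.45, 0.22 and -0.30, beside -0.01 over all genes and 1.73 for the 10 genes. Among the relatives, Pdk1 fell by 1.79 (SE 0.11) in set 2 and Fbxo40, a muscle F-box protein, rose by 1.73 (SE 0.22).

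Lists for other programmes that can move these genes were read the same way, with 0 genes called for diet in set 1, in set 2 or for the mean. Immediate early genes, which respond within minutes to stimulation, had 13 of 17 values below 0 in set 1 (median -0.49) and 16 of 17 in set 2 (median -1.12). Clock genes had 7 of 17 below 0 in each set (medians 0.08 and 0.07), and the core clock factor Arntl was at -1.51 ± 0.26 in set 1 (edgeR adjusted p = 0.106). Targets of p53, of which Cdkn1a is the best known, had medians of -0.04 and -0.17, and denervation genes -0.12 and -0.19. An unadjusted edgeR p under 0.05 was counted in set 1, in set 2 and for the mean. It was met by 4, 6 and 8 of 17 clock genes and 2, 8 and 10 of 17 immediate early genes. Of 12 p53 targets 0, 1 and 1 met it, and of 12 denervation genes 1, 1 and 1. The shares of all genes were 7.54%, 8.59% and 7.83%. Between the sets 4 of 12 p53 targets rose and 1 fell, 1 of 12 denervation genes rose and 9 fell, 6 of 17 clock genes rose and 2 fell, and 1 of 17 immediate early genes rose and 9 fell. Of all genes 19.9% rose and 19.6% fell.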

How the data were processed

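Per the labels' protocols, Trizol was used for the RNA and an Illumina TruSeq kit, of a type that marks no strand, for the libraries, so a gene and an antisense partner cannot be told apart. The deposited values are raw read counts, 1 row to a gene. Per the submitters' processing notes, the authors worked on the build Rnor_6.0 and used DESeq2, Trimmomatic, HISAT2 and featureCounts. No version or annotation is named there. A second deposited table, equal to the counts over 1 constant per library, was not used.

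Genes were filtered with filterByExpr over the 4 groups (14225 of 24648 rows kept) and scaled by TMM. In R 4.3.3, edgeR 4.0.16 took 4 group means from the 12 libraries together, with quasi-likelihood tests and Benjamini-Hochberg adjustment over all genes at 0.05, after a check on simulated counts. Log2 CPM used a prior count of 2. Libraries of 1 group differed by more than sampling noise in every pair (chi-square per degree of freedom of at least 24.5). Alternatives were DESeq2 1.42.0, limma-voom (3.58.1), other scalings and filters, single sets, a replicate block and leaving out libraries. The 10 genes and the lists were chosen with earlier results of these data known. By rule all 10 genes are named in each comparison, of each list at most 3 with the smallest p, and the 6 genes most alike, of which 1 is not reported here.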

Additional observations from a re-analysis of the deposited data

How the results depend on the processing

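Under the other tools, scalings, filters and blocks and without any single library, 0 of the 10 genes passed for diet in set 1, in set 2, for the mean or for the difference between sets. Between the sets 4 to 7 of the 10 rose, in fits where 30% to 44.2% of all genes passed, and 0 fell except for 1 gene with a replicate block, named with it. The number of all genes passing moved more, though it stayed a small share of those tested. DESeq2 called 38 genes for diet in set 1, 40 in set 2, 55 for the mean and 30 for the difference between sets, limma-voom 3 in set 1 and 0 for the mean, and the fit without a filter on low counts 6, 3, 11 and 1. With set 1 fitted alone there were 5. When each library was left out in turn the counts were 1 to 22 in set 1, 0 to 4 in set 2, 0 to 8 for the mean and 0 to 1 for the difference, the highest of the first 3 without library 23. Without libraries 3 and 23, chosen after seeing the data, they were 126, 5 and 147. The cause was not tested.

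Some small diet values changed sign. With limma-voom Ddit4 was at -0.02 in set 1, and Pdk4 at 0.56 and Foxo1 at 0.2 in set 2, and scaling by library size alone put Trim63 at 0 in set 2. The fuel genes were smaller in size with limma-voom. For the mean it put Angptl4 at -0.81, Ucp3 at -0.68 and Pdk4 at -0.35, against -1.44, -1.15 and -1.09 with edgeR. In set 1 it put them at -1.38, -1.34 and -1.27, against -2.02, -1.82 and -1.62. Cdkn1a moved less, at -1.14 for the mean against -1.22. Without libraries 3 and 23, Ddit4 was at -0.17 in set 1, Fbxo32 at -0.3 and Klf15 at -0.08 in set 2, Fbxo32 at -0.1, Trim63 at -0.08 and Klf15 at -0.08 for the mean, and Fbxo32 at -0.41 and Klf15 at 0 for the difference. With each library left out, diet in set 1 ran from -0.09 to 0.3 for Fbxo32, 0 to 0.68 for Trim63, -0.27 to 0.12 for Klf15 and -0.32 to 0.35 for Ddit4. Diet in set 2 ran from -1.54 to 0.15 for Pdk4, -1.46 to 0.18 for Ucp3, -0.3 to 0.89 for Fbxo32, -0.45 to 0.28 for Trim63, -0.62 to 0.47 for Foxo1, -0.08 to 0.48 for Klf15 and -1.1 to 0.11 for Ddit4. The mean ran from -0.12 to 0.47 for Fbxo32, -0.03 to 0.35 for Trim63, -0.08 to 0.2 for Klf15 and -0.52 to 0.08 for Ddit4. The difference between sets ran from -0.35 to 1.73 for Angptl4, -0.03 to 2.01 for Ucp3, -0.36 to 0.83 for Fbxo32, -1.58 to 0.61 for Cdkn1a, -0.9 to 0.75 for Fkbp5 and -1.15 to 0.05 for Ddit4, and Cdkn1a between sets from -1.03 to 0.04.

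Library numbers that differ by 20 were tried as pairs. Deviations of same-numbered libraries correlated at 0.079 to 0.175 across genes (other numbers -0.148 to 0.138), and 10 of 12 libraries correlated best with their own number. In every pair the mean deviation of the 10 genes had the same sign in both libraries. Not every pair was above 0.1, so the main fit did not treat the numbers as pairs. That cut does not show that the animals differed. With a replicate block 6 of the 10 genes rose between the sets and 1 fell. The 2 gained were Trim63, higher (0.49, edgeR adjusted p = 0.0121), and Cdkn1a, lower (-0.68, edgeR adjusted p = 0.0197). Fkbp5, called with and without the block, was at 1.37 with it (edgeR adjusted p = 1.29e-05). In that fit 7 of the 10 genes and 5802 of all genes (5 and 5620 without it) passed between the sets, and 0 genes for the difference. With the block as a random effect 0 passed for the mean. Depth limits the lowest levels most, with 27 counts for Foxo1 in library 13.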
